A study of Homo sapiens with 4 samples.

Results

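The genes described here are 10 genes of the amino acid stress response governed by the transcription factor ATF4: ATF4 itself, DDIT3, TRIB3, CHAC1, ASNS, PHGDH, PSAT1, PSPH, MTHFD2 and CTH. They were taken by symbol from the 22985 named genes of total RNA sequencing of human prostate cancer cells, where they had 25 transcript entries, and all 10 were among the 15975 genes that passed the filter on low counts. LNCaP, an established line from a lymph node metastasis, carries the label of primary cancer. C4-2, a subline derived from it, carries that of castration-resistant cancer. Each line was sequenced in 2 libraries after removal of ribosomal RNA, and both were cultured in RPMI with steroid-depleted (charcoal-stripped) serum. No other treatment is given in the labels. Nor do they tell whether a line's libraries stem from separate cultures. The p-values thus measure only how these samples vary, and that variation may be technical. Each line is a single line, and in bulk RNA fewer cells of a type and less RNA per cell cannot be told apart.

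When amino acids run short or unfolded proteins build up, stress kinases phosphorylate the translation factor eIF2, which slows protein synthesis in general while the ATF4 mRNA is translated more. ATF4 then pairs with C/EBP factors and binds C/EBP-ATF response elements at genes that make, import and save amino acids. Because ATF4 is controlled largely at translation, its mRNA level is not a measure of its protein. Cancer cells are known to use the serine branch of this program, in which PHGDH, PSAT1 and PSPH turn a glycolytic intermediate into serine, and the mitochondrial folate enzyme MTHFD2 uses carbon units that serine gives.

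The core of the C/EBP-ATF response element, TGATGNAA or its reverse complement TTNCATCA, was looked for near the start of each gene. In promoter windows of the RefSeq table (250 bases before to 50 after a start) it was present in 2 of the 9 genes with a window, CHAC1 and ASNS, against 4.46% of 27305 genes. In the 1000 bases before any deposited start, read from GRCh37 (the build hg19), 4 of the 10 genes held it, against 13.48% of 22985 genes. The runs below show these matches as they lie on the strand of each gene, 5′ to 3′, with the matching letters in capitals.
CHAC1: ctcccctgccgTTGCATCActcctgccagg
ASNS: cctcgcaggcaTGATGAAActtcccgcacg
DDIT3: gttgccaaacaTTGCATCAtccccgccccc
PHGDH: cataattctcaTTGCATCActaatttgaaa
The CHAC1 run lies at chr15:41245449-41245478 on the plus strand, and its match covers bases 176 to 169 upstream of the deposited start. The ASNS run, at chr7:97501770-97501799 on the minus strand, has its match 311 to 304 bases upstream of the shorter entries' start and inside the span of the longer entries. The DDIT3 run (chr12:57914585-57914614, minus strand) matches 303 to 296 bases upstream, and the PHGDH run (chr1:120253592-120253621, plus strand) 816 to 809 bases upstream. CHAC1, DDIT3 and PHGDH share the same 8 letters, which match the core on the opposite strand. A second ASNS match lay 752 to 745 bases upstream of the longer entries' start. A match is a description of letters only, and none of the data here measure binding.

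The libraries held 58.9 and 70.5 M sense tags in exons of named genes for LNCaP and 163.1 and 119.1 M for C4-2 (M, 1000000 tags). Such tags were 31.03% and 35.65% of the total used for RPKM for LNCaP, and 67.67% and 69.43% of it for C4-2. The part of this difference in any result was not tested. The data of each sample are stored under the name of the other line, while groups here follow the sample titles, so that every direction would turn round if the stored names were right. LNCaP and C4-2 below stand for the libraries with those titles. Luminal prostate markers were present in all libraries, 11 genes summing to 3159.7 and 3164.0 CPM for LNCaP and 3985.3 and 3932.9 CPM for C4-2. A list of 20 markers of blood, endothelial, stromal, basal, neuroendocrine and liver cells summed to 14.8 to 19.3 CPM. CD3E, HBB and COL1A2, named after their values were seen, were among those at 0 tags in all 4 libraries. Others were detected at low levels. COL1A1 had 6.77 and 8.25 CPM for LNCaP and 2.65 and 2.74 CPM for C4-2. ACTA2 had 0.483 and 0.311 CPM against 1.86 and 2.23 CPM. Of the 9 tested, 2 were higher and 5 lower for C4-2 with an adjusted p under 0.05 (edgeR test, below).

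Relative to the typical gene, 9 of the 10 genes were lower for C4-2 as labelled and PHGDH alone was higher, all with an adjusted p under 0.05 (edgeR quasi-likelihood test over all genes). Across all genes 80.0% were called, 39.7% as lower and 40.2% as higher, so being called is common in this comparison. The 6 genes ATF4, DDIT3, CHAC1, ASNS, PSPH and CTH were lower by at least 2-fold, where 18.1% of all genes were. The median log2 fold change of the 10 genes was -1.56, against -0.01 for all genes tested. Levels are CPM (tags per 1000000 tags, scaled by the TMM method), and the lines did not overlap in CPM for any of the 10 genes, as for 89.9% of all genes.

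**Figure D1:**
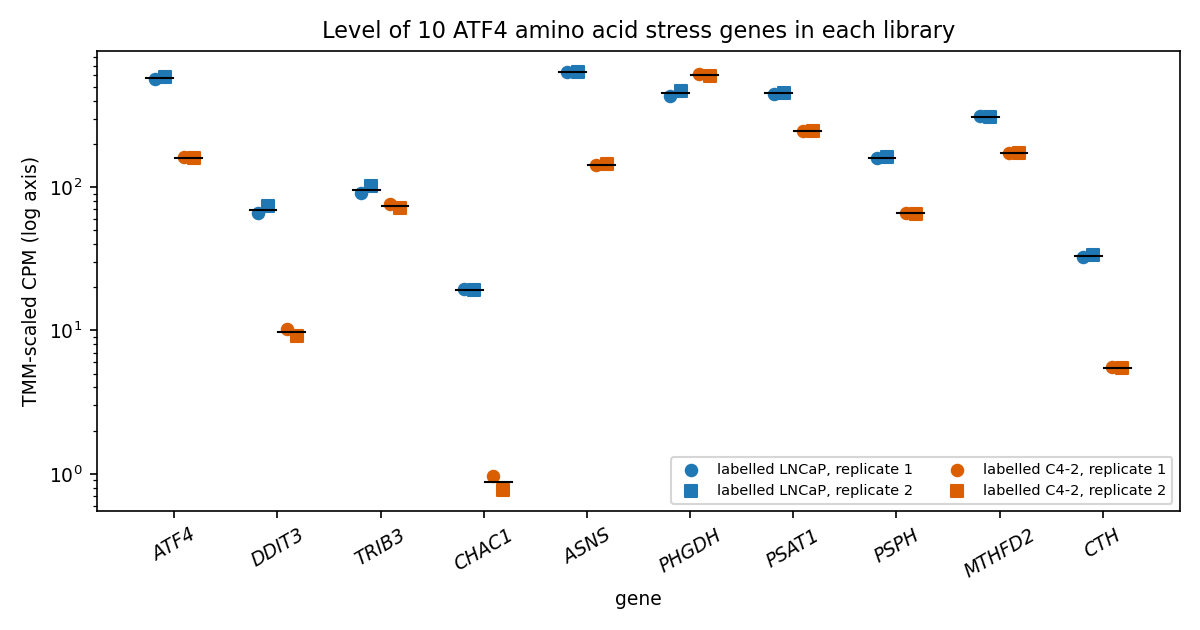
TMM-scaled CPM on a log axis for each of the 10 genes in each library, with circles for replicate 1, squares for replicate 2 and black lines at the mean of a line. The libraries labelled C4-2 sit below those labelled LNCaP for 9 genes and above them for PHGDH.

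The scaling decides some of these directions. TMM sets the typical gene to no change, whereas scaling to the library totals behind the deposited RPKM values raised the median log2 fold change of all genes to 1.01. With it 73.1% of genes were called higher and 10.5% lower, and 87.5% of calls were higher, against 50.3% with TMM. Under these totals ATF4, DDIT3, CHAC1, ASNS, PSPH and CTH were still lower and PHGDH still higher, TRIB3 was higher (log2 fold change 0.62 ± 0.12, SE, adjusted p = 3.54e-07), and PSAT1 and MTHFD2 did not pass (0.14 and 0.17, adjusted p = 0.33 and 0.23). The median of the 10 genes was then -0.56, which is 1.56 below that of all genes.

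**Figure D2:**
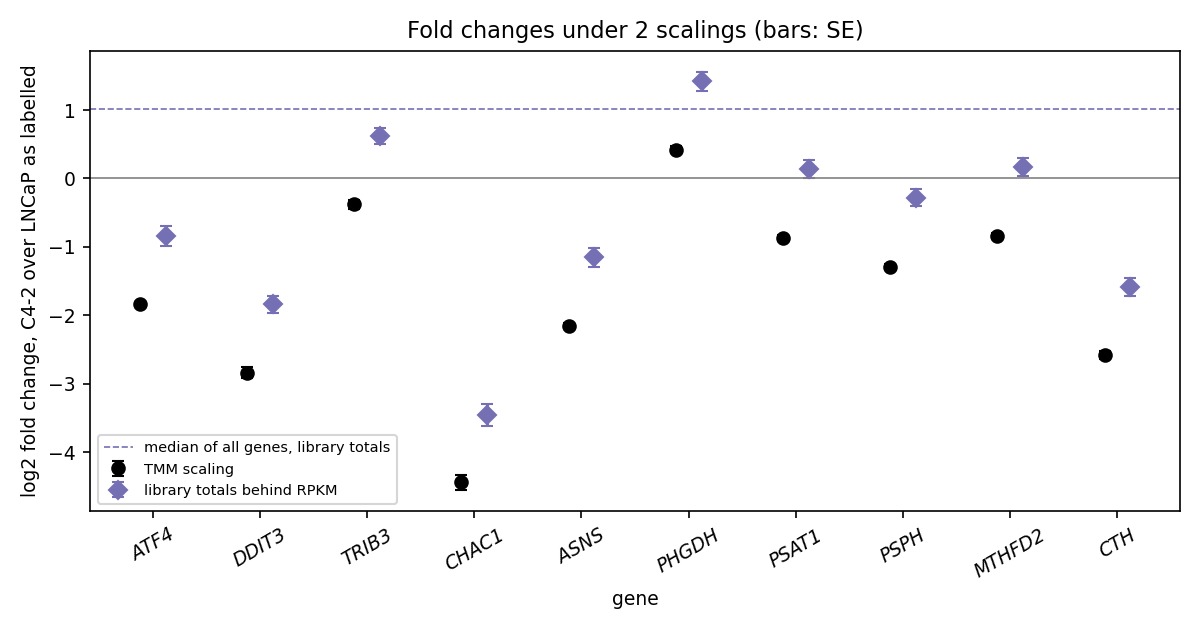
Log2 fold change of each gene, C4-2 over LNCaP as labelled, with TMM scaling (circles) and with the library totals behind RPKM (diamonds); bars are standard errors and the dashed line is the median of all genes under the latter, 1.01. TRIB3, PSAT1 and MTHFD2 lie below 0 with the former and above 0 with the latter, and only PHGDH lies above the typical gene with both.

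ATF4, the factor at the head of the program (hg19 chromosome 22, 39916569 to 39918691, plus strand), had 566.7 and 581.4 CPM for LNCaP and 160.8 and 159.9 CPM for C4-2. Each C4-2 library lay far below either LNCaP library, and replicates were close. The log2 fold change was -1.84 ± 0.04 (SE, adjusted p = 1.21e-08), or -0.84 with library totals. The deposited RPKM values, which use those totals, were 88.7 and 103.0 against 53.0 and 54.4. The longer of its 2 entries has 602 more exon bases than the shorter, and those bases drew 1.56% to 1.76% of its tags in the 4 libraries, so that a level per length is higher by the shorter entry. Both entries gave a log2 ratio of -1.84.

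Among the regulators downstream, DDIT3 encodes CHOP, a C/EBP-family factor that promotes cell death under lasting stress (chromosome 12, 57910371 to 57914300, minus strand). It had 66.1 and 73.1 CPM for LNCaP and 10.3 and 9.10 CPM for C4-2, without overlap. That is 7.17-fold lower (log2 fold change -2.84 ± 0.08, SE, adjusted p = 4.40e-08), or 3.59-fold lower with library totals. Its 6 entries gave log2 ratios of -2.84 to -2.80. The gene shares 68 bases with MARS1 on the opposite strand, and opposite-strand tags were 1.98% and 1.91% of its tags for LNCaP and 4.51% and 4.37% for C4-2.

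TRIB3 encodes a pseudokinase that is induced by ATF4 and CHOP and dampens them in turn (chromosome 20, 361308 to 378203, plus strand). It had 90.4 and 101.2 CPM for LNCaP and 75.9 and 71.5 CPM for C4-2. The lines were close but did not overlap, and the log2 fold change, -0.38 ± 0.06 (SE, adjusted p = 5.54e-04), was the smallest in size of the 10 genes. It turned to 0.62 with library totals, where the deposited RPKM values were 11.7 and 14.8 against 20.6 and 20.

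CHAC1 encodes an enzyme that degrades glutathione, a further target of ATF4 (chromosome 15, 41245636 to 41248717, plus strand). It had 19.4 and 19.0 CPM for LNCaP, from 1165 and 1346 tags, and 0.971 and 0.771 CPM for C4-2, from 156 and 91 tags. No other gene of the 10 had so few tags, and the lines did not overlap. The difference was 21.8-fold (log2 fold change -4.44 ± 0.11, SE, adjusted p = 2.43e-08), or 10.9-fold with library totals, and 1.9% of tested genes had a lower fold change.

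ASNS, asparagine synthetase, is the textbook target of the amino acid response (chromosome 7, 97481429 to 97501854, minus strand). Its level was 634.9 and 636.2 CPM for LNCaP and 141.9 and 143.9 CPM for C4-2. The lines stood apart by far more than their replicates. The log2 fold change was -2.15 ± 0.04 (SE, adjusted p = 5.52e-09), or -1.15 with library totals, and its 6 entries gave log2 ratios of -2.19 to -2.15.

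The serine pathway did not move as a block. PHGDH, which encodes the first enzyme of serine synthesis (chromosome 1, 120254419 to 120286849, plus strand), had 432.2 and 469.2 CPM for LNCaP and 611.8 and 593.2 CPM for C4-2. Both C4-2 libraries were above both LNCaP libraries, and the log2 fold change was 0.42 ± 0.05 (SE, adjusted p = 5.82e-05), or 1.42 with library totals. The deposited RPKM values were 67.9 and 83.4 against 202.4 and 202.5.

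PSAT1, the aminotransferase of the second step (chromosome 9, 80912059 to 80945009, plus strand), ran the other way with 443.0 and 455.0 CPM for LNCaP against 246.9 and 245.6 CPM for C4-2. Its log2 fold change was -0.87 ± 0.04 (SE, adjusted p = 3.40e-07). By deposited RPKM the lines differed little, at 64.1 and 74.5 against 75.2 and 77.2. PSPH, the phosphatase of the last step (chromosome 7, 56078744 to 56119268, minus strand), had 158.5 and 161.3 CPM for LNCaP and 66.2 and 64.8 CPM for C4-2. It was 2.44-fold lower in the latter (-1.29 ± 0.04, SE, adjusted p = 6.08e-08), or 1.22-fold with library totals (adjusted p = 0.022).

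MTHFD2, the mitochondrial folate dehydrogenase (chromosome 2, 74425690 to 74442424, plus strand), had 310.2 and 306.2 CPM for LNCaP and 171.3 and 173.8 CPM for C4-2. The log2 fold change, -0.84 ± 0.04 (SE, adjusted p = 4.77e-07), was close to that of PSAT1. Both genes lost their calls with library totals. CTH, cystathionine gamma-lyase, which makes cysteine (chromosome 1, 70876901 to 70905534, plus strand), had 32.7 and 33.3 CPM for LNCaP and 5.53 and 5.48 CPM for C4-2. It was 5.99-fold lower in the latter (-2.58 ± 0.06, SE, adjusted p = 1.81e-08), and 2.99-fold lower with library totals. Of the 10 genes, 5 (ATF4, ASNS, PSAT1, PSPH and MTHFD2) have named pseudogenes in the RefSeq table, 21 in all and none with a deposited entry. Whether reads shared with these copies entered the counts of those 5 genes could not be checked, so their counts are less certain.

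Per kilobase of exon, the 10 genes kept neither their order nor their spacing between the lines. In the libraries labelled LNCaP the mean levels in CPM per kilobase were 283.9 for ATF4, 269.7 for ASNS, 223.7 for PHGDH, 205.2 for PSAT1 and 140.9 for MTHFD2, followed by PSPH (75.5), DDIT3 (59.1), TRIB3 (39.1), CTH (15.4) and CHAC1 (12.3). By the entries used here, neighbours in this order did not overlap between libraries. The order depends on the entry for ASNS too. By its shortest entry its deposited RPKM values for LNCaP were 98.3 and 108.3. Those of ATF4 were 88.7 and 103.0 by the longer entry and 124.3 and 144.3 by the shorter. In the libraries labelled C4-2 PHGDH led with 299.0, ahead of PSAT1 (112.5), ATF4 (79.3), MTHFD2 (78.9), ASNS (60.6), PSPH (30.9), TRIB3 (30.1), DDIT3 (8.23), CTH (2.57) and CHAC1 (0.558). There ATF4 and MTHFD2 overlapped, as did PSPH and TRIB3. ATF4 is taken here by its longer entry, and its level per length is higher by the shorter one. By the shorter entry its deposited RPKM values for C4-2 were 74.1 and 76.1. Those of PSAT1 were 75.2 and 77.2, and those of MTHFD2 52.2 and 54.7. The place of ATF4 for C4-2 and its percentiles below thus depend on the entry. Among 14442 tested genes with a length, ATF4 stood at the 98.0th percentile of level for LNCaP and at the 92.4th for C4-2, PHGDH at the 97.4th and the 98.4th, and CHAC1 at the 63.2nd and the 13.7th.

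Ratios of tags within a library do not depend on any scaling, and they show how unequally the genes differed. PHGDH had 0.763 and 0.807 tags per ATF4 tag for LNCaP and 3.81 and 3.71 for C4-2, a 4.79-fold higher ratio. ASNS stayed nearest to ATF4, with 1.12 and 1.09 tags per ATF4 tag against 0.882 and 0.900. PSAT1 and MTHFD2 had 1.96-fold and 2.00-fold higher ratios in the libraries labelled C4-2, and TRIB3 and PSPH 2.76-fold and 1.47-fold higher ones. The ratio was lower there for DDIT3 (2.01-fold), CHAC1 (6.16-fold) and CTH (1.67-fold). All 9 ratios to ATF4 were free of overlap between the lines, where the CPM of 89.9% of all genes were too. How many of all genes would be free of overlap in a ratio to ATF4 was not counted. Exact permutation of 2 libraries against 2 cannot give a two-sided p below 0.333, so no test was made of these ratios.

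**Figure D3:**
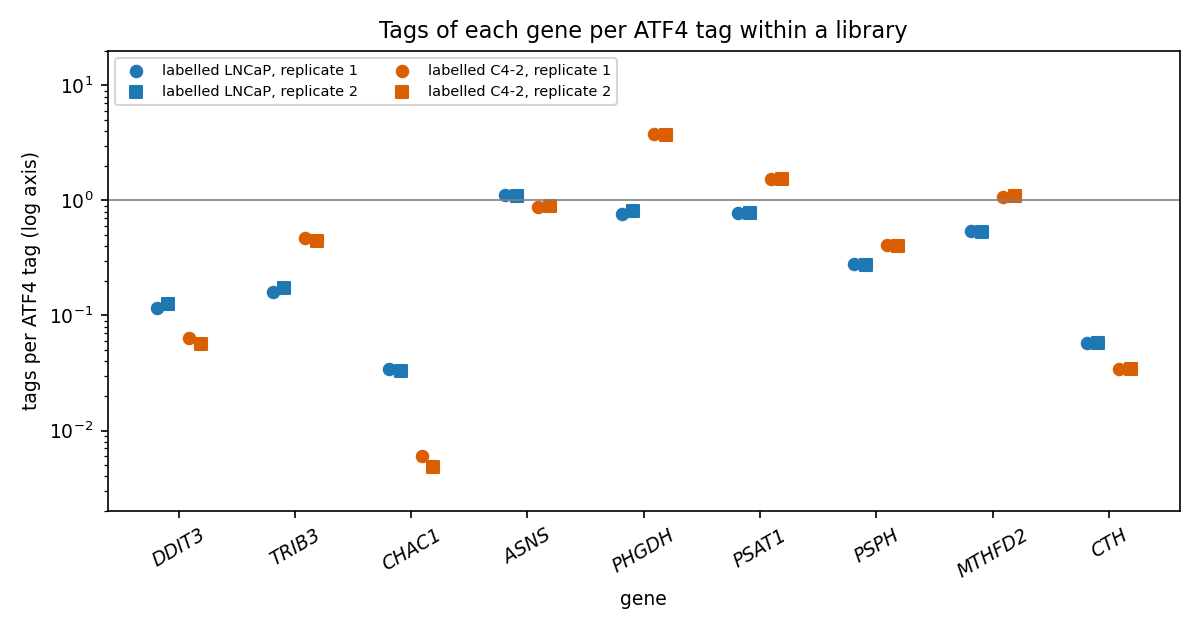
Tags of each gene per ATF4 tag in the same library, on a log axis, with circles for replicate 1 and squares for replicate 2. PHGDH goes from below 1 for LNCaP (0.763 and 0.807) to above 3 for C4-2 (3.81 and 3.71), while CHAC1 falls from 0.0342 and 0.0327 to 0.00604 and 0.00482.

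The pairs of serine enzymes and stress regulators also parted. PHGDH and PSAT1 had nearly equal tags for LNCaP (ratios of 0.976 and 1.03), against 2.48 and 2.42 PHGDH tags per PSAT1 tag for C4-2. PSPH had 0.358 and 0.355 tags per PSAT1 tag against 0.268 and 0.264. TRIB3 had 1.37 and 1.38 tags per DDIT3 tag for LNCaP and 7.38 and 7.86 for C4-2.

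Genes whose 4 values ran most like those of ATF4 were sought among 11217 other tested genes whose average CPM was at least 2 on the log2 scale, by the Euclidean distance between centred log2 CPM values over the 4 libraries. The nearest 5 were the cyclin gene CCNB1 (distance 0.0303), KANK1, NCEH1, STAG3L4 and GNB4 (0.0599), with log2 fold changes of -1.88 to -1.81. With 2 conditions such likeness reflects little more than an equal fold change. ASNS, at a distance of 0.315, was the nearest of the other 9 genes described here. Set among the 11217 genes it would rank only 171st, PSPH 382nd and CHAC1, the farthest, 8990th.

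Around the 10 genes, 9 lists of the wider pathway held 122 tested genes, of which 56 (45.9%) were higher and 53 (43.4%) lower for C4-2 with an adjusted p under 0.05. These shares are near the 40.2% and 39.7% of all genes. With library totals 73.8% were higher and 13.1% lower, again near the shares of all genes (73.1% and 10.5%), and each list below is given under both scalings. Upstream, of the eIF2 kinases and their regulators 7 of 12 rose, 2 fell and 3 did not pass (median log2 fold change 0.22), and with library totals 11 rose and none fell (median 1.23). The 2 that fell, named after their values were seen, were PPP1R15A, of an eIF2 phosphatase (-1.32), and OMA1, a mitochondrial protease gene (-0.26, or 0.75 with library totals, where PPP1R15A did not pass). EIF2AK4, which encodes the amino acid sensor GCN2, had 108.6 and 106.0 CPM for LNCaP and 227.8 and 226.5 CPM for C4-2 (1.08 ± 0.04, SE, adjusted p = 1.75e-07), and its activator gene GCN1 stood at 1.03. The translation factor gene EIF2B5 and IMPACT, an inhibitor of GCN2 activation, stood at 0.62 and 0.61.

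ATF and C/EBP factors, listed with related regulators, were split with TMM. Of 12 genes 5 were higher, 5 lower and 2 not past the threshold (median 0.09), but with library totals 9 were higher and 1 lower (median 1.10). NUPR1, a stress-induced chromatin protein gene, fell from 135.0 and 143.4 CPM for LNCaP to 29.0 and 28.3 CPM for C4-2 (-2.28 ± 0.05, SE, adjusted p = 1.08e-08). CEBPG, a dimer partner of ATF4, was lower at -0.74 with TMM but higher at 0.27 with library totals. CEBPA and JUN were higher, at 1.04 and 1.0.

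Other targets of ATF4 were mostly lower with TMM, 13 of 15 falling and 2 rising (median -0.55), but 9 rose and 4 fell with library totals (median 0.45). ADM2, a peptide hormone gene, had 19.4 and 18.8 CPM for LNCaP and 2.70 and 2.08 CPM for C4-2, a log2 fold change of -2.98. The angiogenic factor gene VEGFA stood at -2.11 and the endoplasmic reticulum stress gene HERPUD1 at -1.46. The tRNA exporter gene XPOT stood at -0.92 with TMM and at 0.09 with library totals. The hormone gene FGF21 had 136 and 148 tags for LNCaP and 2 in each library for C4-2, too few there for a fold. It and the 2 that rose with TMM, named after their values were seen, stand outside the rule for named genes. The latter were the cell death genes BBC3 (1.51) and TNFRSF10B (0.19).

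Amino acid transporters linked to ATF4 were lower throughout with TMM, 10 of 10 (median -1.07), and with library totals 4 were lower and 3 higher (median -0.06). SLC7A5, the large neutral amino acid exchanger, had 94.2 and 97.6 CPM for LNCaP and 2.71 and 2.57 CPM for C4-2. Its log2 fold change of -5.18 was larger in size than that of any of the 10 genes. The cystine importer gene SLC7A11 stood at -3.67, the glycine transporter gene SLC6A9 at -2.33 and SLC38A2 at -1.22, the last losing its call with library totals (-0.21, adjusted p = 0.14).

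Enzymes close to the serine and cysteine branches differed from gene to gene. Of 15 serine, glycine and folate genes 7 were higher, 4 lower and 4 did not pass (median 0.16), and with library totals 11 were higher and 1 lower. ALDH1L2, a mitochondrial folate enzyme next to MTHFD2 in the pathway, fell from 20 and 19.0 CPM for LNCaP to 0.174 and 0.195 CPM for C4-2 (-6.73). Its C4-2 values rest on 28 and 23 tags, beside 70 and 55 tags on the opposite strand, and with tags of both strands its log2 fold change was -4.95. The glycine cleavage gene GLDC, the methionine synthase gene MTR and SHMT1, the cytosolic serine to glycine enzyme, were higher (2.25, 1.33 and 1.13). Of 10 transsulfuration and glutathione genes 9 were tested, 4 being higher and 3 lower (median 0.05), or 7 and 2 with library totals. Among them GCLC, of glutathione synthesis, and MAT2A, which makes S-adenosylmethionine, were lower (-1.31 and -1.29), and GSS and CHAC2, a relative of CHAC1, were higher (0.89 and 0.93).

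Other amino acid synthesis genes ran mostly upward, 11 of 14 being higher and 2 lower (median 0.42), or 12 and 1 with library totals. The lower ones with TMM were BCAT1 and, named after its value was seen, the alanine aminotransferase gene GPT (-1.08), which lost its call with library totals (-0.09, adjusted p = 0.65). The proline synthesis gene PYCR3 stood at 2.11 and the aspartate aminotransferase gene GOT2 at 1.57. BCAT1, the cytosolic branched-chain aminotransferase, had 103.0 and 96.7 CPM for LNCaP and 0.205 and 0.305 CPM for C4-2 (-8.64). Its C4-2 values rest on only 33 and 36 tags, so the size of this fold is uncertain. Genes of the ATF6 and XBP1 arms, which answer unfolded proteins, were evenly split with TMM, 7 of 15 rising and 7 falling (median 0.01), but with library totals 13 rose and 1 fell. There the chaperone genes DNAJB9 and HSPA5 were lower (-2.44 and -1.23) and CRELD2 and HYOU1 higher (1.04 and 0.82), HSPA5 losing its call with library totals (-0.22, adjusted p = 0.11).

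**Figure D4:**
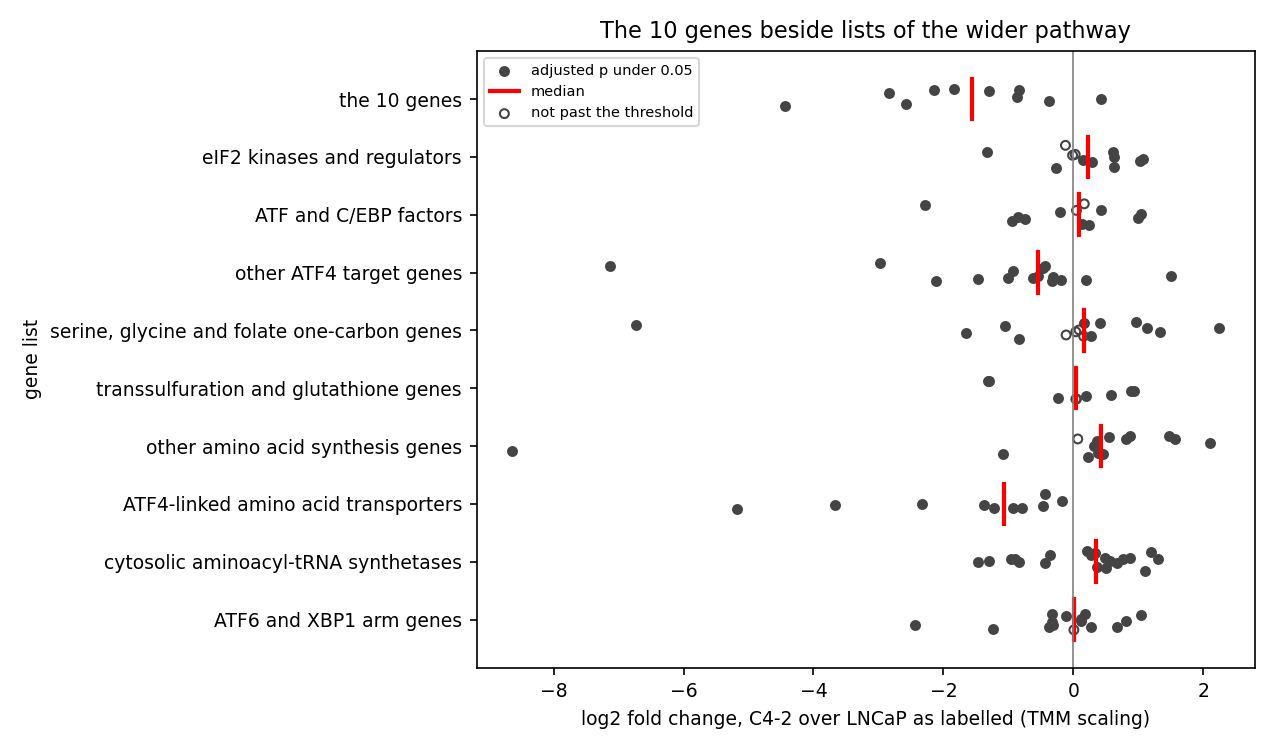
Log2 fold change with TMM scaling, C4-2 over LNCaP as labelled, for every tested gene of the 10 described and of 9 lists of the wider pathway; filled points passed an adjusted p of 0.05 and red lines are medians. The medians of the 10 genes (-1.56), the transporters (-1.07) and the other ATF4 targets (-0.55) lie below 0, and those of the other 7 lists between 0.01 and 0.42.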

How the data were processed

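Total RNA of 4 libraries, 2 labelled LNCaP and 2 labelled C4-2, was analysed. The submitters' processing notes name TopHat2 2.0.6, Bowtie and the build hg19 (GRCh37). The authors deposited tag counts and RPKM values per strand for 41351 RefSeq transcript entries. No counting tool or transcript version is given in the sources used here. Sense tags were used. Entries were named through a RefSeq table (38974 of 40304 accessions matched), and unnamed entries, 2.06% to 2.15% of sense tags, were left out. For each of 22985 symbols the entry with the most tags was kept. Library totals behind RPKM (189.87, 197.63, 241.07 and 171.51 M) and exon lengths were recovered from the ratio of counts to RPKM.

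Counts were tested with edgeR 4.0.16 (quasi-likelihood, filter on low counts, TMM, R 4.3.3), with a single term for the line and Benjamini-Hochberg adjustment over 15975 genes. The script was tested on simulated data. Each standard error is the log2 fold change divided by the root of its F value. The biological coefficient of variation was 6.43%. Libraries of a line differed beyond sampling noise (chi-square per degree of freedom 25.1 for LNCaP, 12.8 for C4-2). DESeq2 1.42.0 was an alternative. The genes named were the 10 genes, the 4 members of each list with the smallest adjusted p, and the 5 genes most like ATF4. Some of these are not reported here, and genes named outside this rule are marked as chosen after their values were seen. The 10 genes and the lists were chosen with earlier results of these data known, so counts over lists are no independent support.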

Additional observations from a re-analysis of the deposited data

Results flagged for a closer look

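Tags on the strand opposite to a gene were left out of the main comparison and entered only the setting with tags of both strands. For 8 of the 10 genes they exceeded, in every library, the 3 tags that a count of 0 allows. Over the 4 libraries they ranged from 434 to 980 for ATF4, from 49 to 101 for DDIT3, from 79 to 109 for PSPH and from 31 to 48 for MTHFD2. They ranged from 15 to 40 for TRIB3, from 11 to 50 for ASNS, from 16 to 38 for PSAT1 and from 9 to 43 for PHGDH. Over all named genes 1.29% to 1.99% of tags lay on the opposite strand. The shares for ATF4 (1.95% and 2.33% for LNCaP, 1.65% and 2.73% for C4-2) were above that of all genes in 3 of the 4 libraries. Those of DDIT3 were 1.98% and 1.91% for LNCaP, where all genes had 1.99% and 1.83%. For C4-2 they were 4.51% and 4.37%, where all genes had 1.31% and 1.29%. Those of PHGDH (0.0347% to 0.0512%) were far below the share of all genes.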

How the results depend on the processing

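With library totals in place of TMM, 11626 genes were higher and 1664 lower (6429 and 6346 with TMM), and over the 9 lists 90 genes were higher and 16 lower (56 and 53 with TMM). Of the 10 genes 2 were then higher, PHGDH and TRIB3 (0.62), and 6 lower. PSAT1 (0.14), MTHFD2 (0.17), CEBPG (0.27) and XPOT (0.09) also turned positive, of which only CEBPG passed, and the shift follows from the totals themselves, which put the median of all genes at 1.01. In the 13 other settings each of the 10 genes kept its direction and its call, except that CHAC1 did not pass the stricter filter (at least 1 CPM in all 4 libraries) and was not tested there. These settings were DESeq2 size factors, the DESeq2 test, no filter, the stricter filter, other choices of transcript, tags of both strands, leaving out each library, the replicate block and a crossed block. Over them TRIB3, the nearest to 0, ranged from -0.50 to -0.29 (largest adjusted p = 0.0015) and PHGDH from 0.30 to 0.48 (largest adjusted p = 4.81e-04). The stricter filter moved 6 counts of single lists by over 1.5 times, and tags of both strands moved 1. Fitting the replicate number as a block gave 6259 genes higher and 6141 lower and changed no call of the 10 genes. Same-numbered libraries did not deviate together (correlation -0.165 over 11227 genes), so the numbers were not taken to pair them, and a crossed block, added after seeing the data, gave 6534 and 6323. The motif window of 1000 bases was also added after seeing the data and raised the genes with a match from 2 to 4. Tags of CHAC1 in the libraries labelled C4-2, 156 and 91, are the lowest depth behind any of the 10 values.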

Other observations

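The cytosolic aminoacyl-tRNA synthetases, which load amino acids onto tRNA and of which some are known ATF4 targets, were split with TMM scaling. Of 20 genes 13 had higher and 7 had lower levels for C4-2 as labelled (median log2 fold change 0.35, against -0.01 for all genes), and with library totals 15 were higher and 2 lower. Over all genes 40.2% were called higher and 39.7% lower with TMM, and 73.1% and 10.5% with library totals. CARS1, for cysteine, had 106.9 and 110.4 CPM for LNCaP and 39.7 and 39.1 CPM for C4-2 (-1.46), and GARS1, for glycine, stood at -1.30. KARS1, for lysine, and HARS1, for histidine, stood at 1.31 and 1.11. The other 5 that were lower, named here after their values were seen, were IARS1, MARS1, SARS1, TARS1 and YARS1.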
